A study of Mus musculus with 4 samples.

Results

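Described here are 10 genes of cytokine signalling in mouse bone marrow cells: the receptors Epor, Il7r, Kit, Flt3, Csf2rb and Il2rg, the kinases Jak1 and Jak2, and the transcription factors Stat5a and Stat5b. They were taken by name as parts of the pathway, with no threshold on their values but with earlier results of these data known, and are 10 of the 17507 gene names in the deposited tables. The series title concerns the blood-cell origin of marrow cells that lack CD45. Single cells of C57BL/6 marrow were sorted as CD51- and either CD44+ or CD44-, and were called TNCs by the submitters, who do not spell the term out in the sources used here. All cells came from marrow digested with collagenase IV and dispase, no treatment or age is labelled, and the labels name no animals. Each cell went into a well of a 384-well plate, where SORT-seq, a plate method that tags messenger RNA with a well barcode and a molecular barcode, gave estimated transcripts per gene and well. One plate held CD44+ cells alone, one held CD44- cells alone and 2 plates were shared, with CD44+ cells in rows A to H and CD44- cells in rows I to P, so that each sort has 3 libraries. Replicate 1 is the plate of its own and replicates 2 and 3 are the shared plates. Well numbers were read row by row, an order that the labels do not state.

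Wells with at least 1000 transcripts were kept, which left 343 of 1536 wells, 238 of them CD44+ and 105 CD44-. The 3 CD44+ libraries held 56, 95 and 87 wells with medians of 1994, 5162 and 11225 transcripts, and the 3 CD44- libraries held 44, 24 and 37 wells with medians of 1848, 1795 and 2544. The summed transcripts ran from 97041 to 1707318 per library, so levels in the CD44- libraries and in CD44+ replicate 1 rest on few transcripts. Because nothing in the labels ties libraries to separate animals, every p-value below speaks to the scatter among these 6 libraries, and that scatter may be technical. As a check of the sorts, Cd44 transcripts were found in 145 of the 343 wells and did not separate them, at 93.5, 284 and 225 CPM (a gene's transcripts scaled to the same total in every library) in CD44+ replicates 1 to 3 and 124, 345 and 113 CPM in CD44- replicates 1 to 3. Ptprc, the gene of CD45, had transcripts in 105 wells and Itgav, the gene of CD51, in 29. The sort read surface protein, and messenger RNA was all that was counted here.

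Cytokine receptors of this group carry no kinase of their own, except Kit and Flt3, which are receptor tyrosine kinases. On binding a ligand they bring together Janus kinases, which phosphorylate the receptor and then STAT proteins, and the phosphorylated STATs enter the nucleus and bind DNA. In marrow, erythropoietin signals through Epor, Jak2 and Stat5 in red-cell precursors. Interleukin-7 signals through Il7r and Il2rg with Jak1 and Jak3 in early B cells, while Csf2rb is the shared chain for interleukin-3, interleukin-5 and GM-CSF in myeloid cells.

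The stretches just upstream of the starts of Epor and Il7r are shown first, since these are the receptors whose levels differed most between kinds of well. Each was taken from RefSeq on build GRCm38.p6, is written 5′ to 3′ on the strand of the gene (the minus strand for both) and ends at the base before the RefSeq start. Capitals mark a match to a motif. For Epor the stretch is chr9:21963577-21963826, where TTATCT, the reverse complement of AGATAA, begins at base -54. For Il7r it is chr15:9529877-9530040, the part of the window that holds no exon in the GENCODE annotation, which puts the first Il7r exon just upstream, and there TTCAGGGAA begins at base -142.
Epor: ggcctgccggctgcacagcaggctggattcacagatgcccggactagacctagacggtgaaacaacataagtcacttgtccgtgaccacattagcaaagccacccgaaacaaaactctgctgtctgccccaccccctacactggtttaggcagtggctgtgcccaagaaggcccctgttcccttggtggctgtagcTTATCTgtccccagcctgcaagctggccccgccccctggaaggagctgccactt
Il7r: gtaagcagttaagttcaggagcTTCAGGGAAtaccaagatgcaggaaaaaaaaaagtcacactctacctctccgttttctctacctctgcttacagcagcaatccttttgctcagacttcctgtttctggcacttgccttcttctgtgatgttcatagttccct
Both strands of the 250 bases upstream of each RefSeq start were searched for AGATAA, the core of a GATA-factor motif, for TTCNNNGAA, the STAT5 core, and for CAGGTG, an E-box. Of 32851 such windows over all genes, 9.99% held AGATAA, 7.02% held TTCNNNGAA and 17.2% held CAGGTG. For 9 of the 10 genes RefSeq gave 12 windows in all, and none was found for Csf2rb. One of these windows held AGATAA (Epor), one TTCNNNGAA (Il7r) and one CAGGTG (Stat5a, at base -62). These matches describe letters only.

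Transcripts of the 10 genes were sparse. Together they came to 2117 transcripts, and 237 of the 343 wells held at least one. Jak1 was found in 153 wells (44.6%) with 590 transcripts, and Epor in 78 wells (22.7%) with 337 transcripts. Kit was found in 73 wells with 336 transcripts, Csf2rb in 75 with 200, Stat5b in 73 with 167, Jak2 in 72 with 170, Stat5a in 60 with 128 and Il2rg in 41 with 83. Il7r was found in 34 wells (9.91%) with 100 transcripts, of which the 5 richest wells held 47%. Flt3 was nearly absent, with 5 transcripts in 4 wells, and the table of the plate of replicate 3 has no row for it. Wells in which a gene was found were deeper than the rest for every one of the 10, with a median of 19256 transcripts for wells with Epor against 2585 without, and 5567 against 3105 for Il7r. A share of wells with a transcript therefore moves with depth, and shares are given below also after each well was thinned at random to 1000 transcripts.

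The CD44+ and CD44- sorts were compared first, over the summed transcripts of their 3 libraries each. None of the 10 genes passed the filtered test between the sorts, while Il7r passed in a wider fit with the pair of libraries as a replicate block (log2 difference -2.20, adjusted p = 0.0482 in edgeR). Il7r, Jak1 and Jak2 were lower in all CD44+ libraries than in any CD44- library, while Epor was higher in CD44+ in each of the 3 pairs of libraries but with values that overlapped between the groups. In sums over sorted cells, fewer cells of a type and less RNA per cell cannot be told apart.

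Among the receptors, Epor (protein coding, 9:21958897-21963506 on GRCm38), which red-cell precursors need to survive, stood at 46.8, 70.7 and 140 CPM in CD44+ replicates 1 to 3 and at 10.3, 19.7 and 56.7 CPM in CD44- replicates 1 to 3. The means were 85.8 ± 48.5 CPM (SD, n = 3) and 28.9 ± 24.5 CPM (SD, n = 3), and CD44- replicate 3 lay above CD44+ replicate 1. Behind these values stood 325 transcripts in CD44+ cells and 12 in CD44- cells. The log2 ratio of CD44+ to CD44- within the 3 same-numbered pairs was 1.48, 1.44 and 1.17. Beside this, the summed level of 10 early erythroid markers was 3728 to 9373 CPM in CD44+ and 1352 to 2093 CPM in CD44-, and its part in the Epor values was not tested.

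Il7r (15:9505788-9530176), the chain that binds interleukin-7 and is needed for B-cell development, stood at 13.4, 59 and 3.51 CPM in CD44+ and at 72.1, 78.9 and 69.3 CPM in CD44-. The CD44- libraries lay close together, at 73.4 ± 4.95 CPM (SD, n = 3), and the CD44+ libraries spread widely, at 25.3 ± 29.6 CPM (SD, n = 3), with replicate 2 near the CD44- level. These levels rest on 2, 66 and 6 transcripts in CD44+ and on 7, 8 and 11 in CD44-. With so few transcripts, the small SD in CD44- is not a measure of precision. Markers of B progenitors, 12 of 12 found, summed to 1223, 2938 and 204 CPM in CD44+ and to 2289, 2321 and 1987 CPM in CD44-, the same order of the CD44+ libraries as for Il7r. The part of these markers in the Il7r values was not tested.

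Kit (5:75574916-75656722), the stem cell factor receptor of early progenitors, stood at 107, 84.1 and 112 CPM in CD44+ and at 20.6, 49.3 and 170 CPM in CD44-. The highest and the lowest library were both CD44-, and the groups overlapped. Markers of mast cells and basophils, mast cells being another marrow cell that carries Kit, summed to 0 to 18.9 CPM per library, with Fcer1a at 0 in all 6. Csf2rb (15:78325752-78353847) stood at 26.7, 83.2 and 46.3 CPM in CD44+ and at 51.5, 138 and 31.5 CPM in CD44-, again with overlap. Of its 75-base windows, 7.15% are shared with the neighbouring gene Csf2rb2, so some of its reads could be counted for the other gene. Where the shared windows lie against the counted reads was not examined, so the size of this effect is not known. Il2rg (X:101264378-101268255), the common gamma chain, stood at 6.68, 41.1 and 10.5 CPM in CD44+ and at 30.9, 49.3 and 63 CPM in CD44-. It lies within the gene model Gm20489, with which it shares 26% of its windows, and its counts could be split between both. Flt3 (5:147330741-147400489), the FLT3 ligand receptor of multipotent progenitors, had 4 transcripts in CD44+ cells and 1 in CD44- cells, too few to compare.

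Both kinases were lower in the CD44+ library of every pair. Jak1 (4:101152367-101265282), which serves Il7r and Il2rg, stood at 127, 164 and 175 CPM in CD44+ and at 196, 266 and 271 CPM in CD44-. The means were 155 ± 25.3 CPM (SD, n = 3) and 244 ± 42.1 CPM (SD, n = 3), and the log2 ratio within the 3 pairs was -0.59, -0.67 and -0.60. Jak2 (19:29251828-29313080), which serves Epor and Csf2rb, stood at 13.4, 42.9 and 51 CPM in CD44+ and at 61.8, 78.9 and 120 CPM in CD44-, with log2 ratios of -1.62, -0.75 and -1.09 in the pairs. All CD44+ libraries lay below all CD44- libraries for both kinases. Stromal markers separated the sorts in the same way, at 167 to 1413 CPM in CD44+ and 5791 to 31283 CPM in CD44-, and 8 of the 19 Jak2 transcripts of CD44- replicate 3 came from 1 well with 1064 transcripts of the stromal list. Their part in the kinase values was not tested.

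Stat5a and Stat5b, the transcription factors that these receptors share, lie side by side on chromosome 11 (11:100859351-100885169 and 11:100780731-100850724). Stat5a stood at 33.4, 24.1 and 44.5 CPM in CD44+ and at 30.9, 69.2 and 63 CPM in CD44-, and Stat5b at 26.7, 43.8 and 56.8 against 10.3, 69.1 and 56.7 CPM. Both overlapped between the sorts. The 69.2 CPM of Stat5a in CD44- replicate 2 came from 7 transcripts of 1 well. They share 387 windows of 75 bases, 5.12% of those of Stat5a and 6.99% of those of Stat5b, and Stat5a overlaps Stat3 at its 3′ end by 72 bases, so part of their reads could be counted for the other gene.

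**Figure D1:**
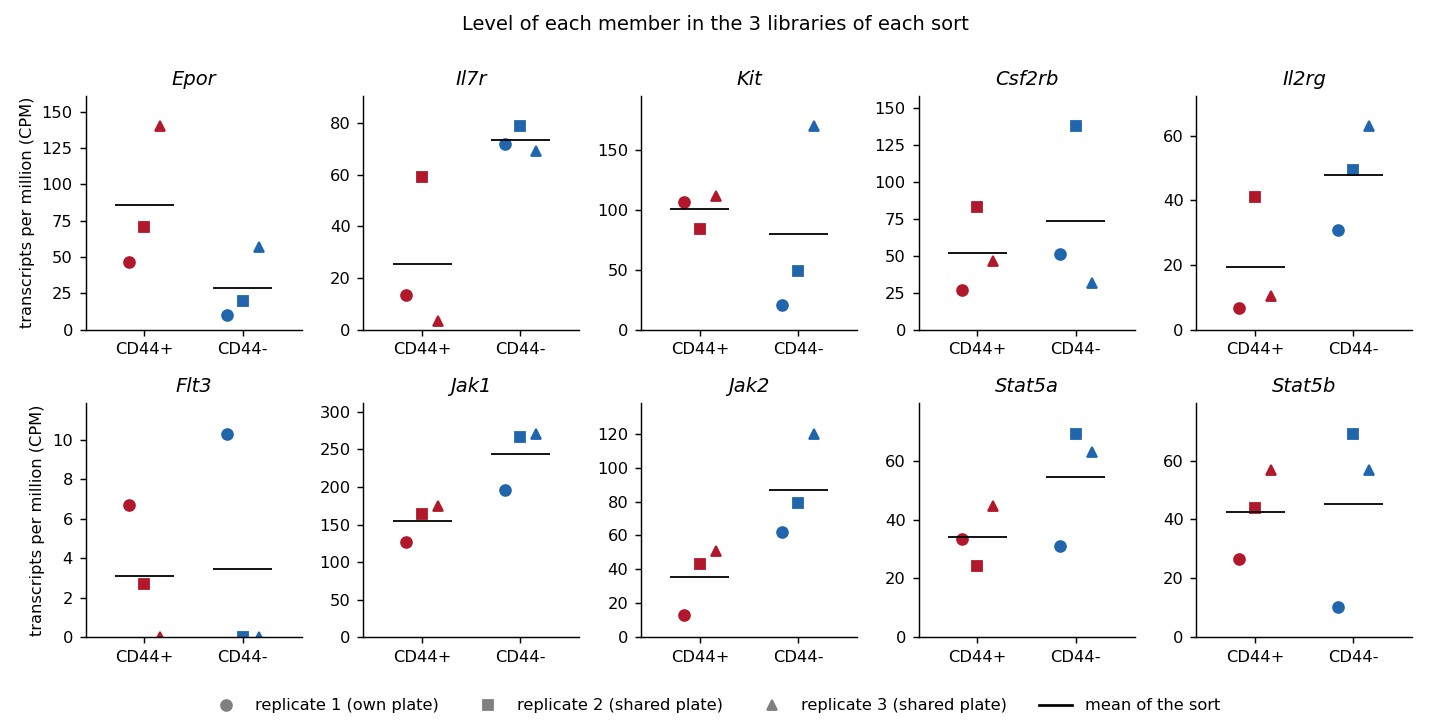
Level of each gene in CPM (wells with at least 1000 transcripts) in the 3 CD44+ libraries (red) and the 3 CD44- libraries (blue), with the marker shape giving the replicate and the bar the mean of the sort. The points of Il7r, Jak1 and Jak2 do not overlap between the sorts, those of the other genes do, and Flt3 is near 0 throughout and drawn at 0 for replicate 3, where it has no row.

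Of the 9 genes with at least 50 transcripts, 3 were lower in all CD44+ libraries, against 7.58% of the 7404 genes with at least 50 transcripts, and none was higher in all CD44+ libraries, against 12.7%. The exact two-sided permutation test over 3 against 3 libraries gave p = 0.1 for Il7r, Jak1 and Jak2, the smallest value it can give. Only Il7r, Jak1 and Kit passed edgeR's filter on low counts, and none was called at an adjusted p below 0.05, where edgeR's quasi-likelihood test called 0.0406% of 2463 genes higher and 0.974% lower in CD44+ cells. One of the 3 had an unadjusted p below 0.05, and DESeq2 called 0. The log2 difference was -0.75 (SE 0.28, adjusted p = 0.21) for Jak1, -1.55 (SE 0.96, adjusted p = 0.401) for Il7r and 0.19 (SE 0.59, adjusted p = 0.892) for Kit. Il7r passed the filter only through the CD44- libraries, where it was higher. With no filter on low counts edgeR called none of the 10 either, where 0.839% of 16924 genes were called higher and 1.98% lower, and Epor came nearest (1.90, SE 0.62, adjusted p = 0.0717). A fit of all genes with at least 50 transcripts, chosen after most of the 10 had missed the filter, tested 9 of them and called none, where 0.0405% of 7404 genes were called higher and 1.05% lower. There edgeR gave Epor 1.46 (SE 0.59, adjusted p = 0.315) and Jak2 -1.22 (SE 0.46, adjusted p = 0.294), and 2 of the 9 had an unadjusted p below 0.05.

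With the pair of libraries as a replicate block in that wider fit, Il7r passed in edgeR, with a log2 difference of -2.20 (SE 0.68, adjusted p = 0.0482), where 1.34% of the genes were called higher and 4.11% lower. In the filtered fit with the block its adjusted p was 0.114. The Il7r difference moved between -3.56 without CD44+ replicate 2 and -0.81 without CD44+ replicate 3 in the filtered fit. Il7r entered the filtered fits only through the CD44- libraries. The shares of wells after thinning were 1.71% in CD44+ and 7.75% in CD44- for Jak2, 11.9% and 19.9% for Jak1 (means of 3 libraries), and for Stat5a 0.734% and 3.95%, each with an exact permutation p of 0.1. Stat5b went the other way, at 4.48% and 1.39% (exact permutation p = 0.2). Before thinning the shares of Jak2, Jak1 and Stat5a went the other way, at 20.8% against 17.2%, 44.7% against 40.2% and 19.8% against 8.45%, so no order is read from them.

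Wells were next sorted by lineage markers found in the same well. Car1 is a carbonic anhydrase of early red-cell precursors, Cd79b a chain of the B-cell receptor complex, Mpo the myeloperoxidase of neutrophil precursors and Cxcl12 a chemokine of marrow stroma. Car1 was found in 149 wells, Cd79b in 76, Mpo in 84 and Cxcl12 in 139, with none of them in 73. The classes overlapped, since 80 wells held both Car1 and Cxcl12, 44 Car1 and Mpo, and 21 Car1 and Cd79b, and 84 of the Cxcl12 wells and 68 of the Car1 wells held no more than 2 transcripts of the marker. Wells with a marker were deeper, at a median of 6529 against 2548 transcripts for Car1 and 4128 against 3135 for Cd79b. Other markers of the same kinds of cell followed, with the 4 genes themselves left out of the sums. Early erythroid markers summed to 7288 CPM in Car1 wells and 344 CPM in the rest. B progenitor markers summed to 4711 against 166 CPM by Cd79b, neutrophil markers to 17132 against 6843 CPM by Mpo and stromal markers to 2407 against 44.5 CPM by Cxcl12. Cxcl12 wells also held 5845 CPM of early erythroid and 15081 CPM of neutrophil markers, so a Cxcl12 transcript did not mark stromal wells alone. No doublet caller was run.

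Il7r transcripts were concentrated in Cd79b wells, and Epor transcripts in Car1 wells. Of the 100 Il7r transcripts, 94 lay in the 76 wells with Cd79b, and of the 337 Epor transcripts, 325 lay in the 149 wells with Car1. Epor was in turn lower in Cd79b wells. Csf2rb was higher in Mpo wells in every library compared but did not pass the test, and in the test by Cxcl12 none of the genes passed.

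Within each library, Il7r stood at 83.9, 126 and 33.1 CPM in the Cd79b wells of CD44+ replicates 1 to 3, against 0, 0 and 0.643 CPM in their other wells. In the CD44- libraries it stood at 187, 176 and 244 CPM in Cd79b wells, against 28.4, 29.7 and 8.49 CPM in the others. Il7r was thus higher in 6 of 6 libraries, and the lowest library with Cd79b lay above the highest without it (142 ± 76.3 against 11.2 ± 14.2 CPM, SD, n = 6). Of 7403 genes compared over these libraries, 0.865% had groups that did not overlap in this direction and 4.5% were higher in every library. The exact sign-flip permutation test over the 6 libraries gave p = 0.0312, two-sided and not adjusted, the smallest it can give, among 40 such values computed. Wells with Cd79b were not many, from 5 to 31 per library, and in CD44+ replicate 2 they held 66 of the 94 transcripts.

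In the filtered fit Il7r was too sparse to be tested by Cd79b. There edgeR called 2% of 1247 genes higher and 1.84% lower, tested Jak1 alone of the 10 genes (log2 difference -0.46, SE 0.35, adjusted p = 0.656) and called 0 of them, with none at an unadjusted p below 0.05 and 0 by DESeq2. In the fit with no filter on low counts, edgeR gave Il7r a log2 difference of 4.07 (SE 0.67, adjusted p = 4.37e-07), where 1.01% of 16924 genes were called higher and 2.48% lower. In the fit of genes with at least 50 transcripts it was 4.14 (SE 0.70, adjusted p = 4.01e-06), a 17.7-fold difference, where 2.44% of 7404 genes were called higher and 4.73% lower. Il7r reached those 50 transcripts only through the Cd79b wells, while the unfiltered fit does not depend on that minimum. The median difference of all genes was -0.47 and -0.21 in these 2 fits, so Il7r lay further above the median gene than above 0. Leaving out 1 library at a time gave 3.92 to 4.71 with adjusted p of at most 3.63e-05, except that without CD44+ replicate 2 Il7r fell under 50 transcripts and was not tested.

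Il2rg, the partner chain of Il7r, was higher with Cd79b in 5 of 6 libraries and lower in CD44- replicate 2. It stood at 42, 74.7 and 19.9 CPM in the Cd79b wells of the CD44+ libraries against 0, 11.7 and 9.64 CPM in the rest, and at 75, 29.4 and 122 against 14.2, 59.4 and 42.4 CPM in the CD44- libraries. Its difference did not pass in edgeR's fit of genes with at least 50 transcripts (log2 difference 1.26, SE 0.65, adjusted p = 0.329). Of the 34 wells with Il7r, 12 also held Il2rg (35.3%), against 9.39% of the wells without Il7r, at median depths of 5567 and 3105 transcripts. After thinning, 1 well held both.

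Epor by Car1 was compared over 5 libraries, since CD44- replicate 1 had 2 wells with Car1. In the CD44+ libraries Epor stood at 89.2, 129 and 163 CPM in Car1 wells against 12.1, 10.9 and 4.07 CPM in the others. In CD44- replicate 2 it stood at 38 against 0 CPM, and in CD44- replicate 3 at 50.2 against 67.6 CPM, from 5 and 4 transcripts. Epor was thus higher in 4 of 5 libraries, and CD44- replicate 3 made the groups overlap (93.9 ± 52.6 against 18.9 ± 27.7 CPM, SD, n = 5). The exact sign-flip permutation test gave p = 0.125, and the smallest it can give for 5 libraries is 0.0625. None of the 9 genes with at least 50 transcripts was higher, or lower, with Car1 in every library, as 12.6% and 4.88% of 7275 genes were, nor had groups that did not overlap, as 2.89% did in the higher direction.

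Neither Epor nor Il7r was tested by Car1 in the filtered fit, where edgeR called 2.73% of 1173 genes higher and 7.08% lower. Of the 10 genes it tested Jak1 (-0.53, SE 0.38) and Kit (0.21, SE 0.45) and called 0, with none at an unadjusted p below 0.05 and 0 by DESeq2. With no filter on low counts, edgeR gave Epor a log2 difference of 2.98 (SE 0.59, adjusted p = 5.58e-05), where 1.64% of 16635 genes were called higher and 3.02% lower. For genes with at least 50 transcripts it was 2.94 (SE 0.64, adjusted p = 0.00558), a 7.66-fold difference, where 3.15% of 7276 genes were called higher and 4.92% lower. Epor reached those 50 transcripts only through the Car1 wells, which the unfiltered fit does not depend on. The median of all genes was -0.25 and 0.14 in these fits. In the latter fit the call was lost without CD44+ replicate 2 (2.25, adjusted p = 0.224) and without CD44+ replicate 3 (2.14, adjusted p = 0.17), the libraries that held 73 and 238 of the 325 transcripts. It was kept without each of the other 3, at 2.85 to 3.65. It was also kept without low-quality wells (3.26, adjusted p = 0.00168) and without the deepest wells of each plate (2.93, adjusted p = 0.00351).

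By Cd79b the direction for Epor was the opposite. Epor was lower in 5 of 6 libraries, at 0, 28.8 and 6.62 CPM in the Cd79b wells of the CD44+ libraries against 55.6, 107 and 153 CPM in the rest. In the CD44- libraries it was 0, 29.4 and 24.4 CPM against 14.2, 14.9 and 67.9 CPM, with replicate 2 higher by Cd79b. With no filter on low counts edgeR put Epor at -2.81 on the log2 scale (SE 0.67, adjusted p = 0.00193). In the fit of genes with at least 50 transcripts, which Epor reached only through its 319 transcripts in wells without Cd79b (18 with it), the difference was -2.69 (SE 0.67, adjusted p = 0.00307). In that fit the call was lost without CD44+ replicate 2 (-2.92, adjusted p = 0.0945) and without CD44+ replicate 3 (-2.14, adjusted p = 0.0949). Both contrasts use the same wells, so the difference by Cd79b is not independent of that by Car1.

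Kit, which early progenitors of several lineages carry, was higher in Car1 wells in 3 of 5 libraries. It stood at 193, 119 and 106 CPM in the Car1 wells of the CD44+ libraries against 36.4, 48.8 and 147 CPM in the rest, and at 94.9 and 161 CPM against 0 and 186 CPM in CD44- replicates 2 and 3. CD44+ replicate 3 and CD44- replicate 3, the libraries of the same plate, were the ones that went the other way. The difference did not pass in edgeR's fit of genes with at least 50 transcripts (log2 difference 0.58, SE 0.43, adjusted p = 0.479).

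Csf2rb was compared by Mpo over the 4 libraries of the shared plates. It stood at 98.2 and 83.2 CPM in the Mpo wells of CD44+ replicates 2 and 3 against 71.5 and 26.2 CPM in the rest, and at 163 and 47.7 CPM in CD44- replicates 2 and 3 against 46.7 and 25.7 CPM. It was higher in 4 of 4 libraries, which holds for 9.48% of 7130 genes, and the groups overlapped. The filtered fit tested 8 of the 10 genes by Mpo and called 0, where edgeR called 0.188% of 4781 genes higher and 0.899% lower. Csf2rb was the only one with an unadjusted p below 0.05 (log2 difference 1.04, SE 0.45, adjusted p = 0.632), and DESeq2 called 0. Among genes with at least 50 transcripts none of 9 was called by Mpo, where 0.631% of 7131 genes were called higher and 1.51% lower. In wells with at least 3 Mpo transcripts against all others the Csf2rb difference was 2.12 (SE 0.41, adjusted p = 0.201). Of those 29 wells, 21 held Csf2rb (72.4%, 95% exact interval 52.8% to 87.3%), and after thinning 5 did (17.2%). Exact intervals here and below are Clopper-Pearson intervals and cover counting error only.

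By Cxcl12 the filtered fit tested Jak1 alone, at a log2 difference of 0.00 (SE 0.29, adjusted p = 0.996), and called 0 of the 10 genes, where edgeR called 0.801% of 1374 genes higher and 0% lower. None had an unadjusted p below 0.05 and DESeq2 called 0. Among genes with at least 50 transcripts, none of the 9 tested was called either, where 2.08% of 7404 genes were called higher and 0.081% lower. Il7r alone had an unadjusted p below 0.05 there (log2 difference -1.23, SE 0.53, adjusted p = 0.611 in edgeR).

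Of the kinases, Jak2 was higher in Car1 wells in 4 of 5 libraries. It stood at 29.7, 46 and 58.9 CPM against 0, 39.8 and 4.07 CPM in the CD44+ libraries, and at 75.9 and 171 CPM against 82.2 and 33.8 CPM in CD44- replicates 2 and 3. Of the 17 Jak2 transcripts behind the 171 CPM, 8 came from 1 well with 1064 stromal-list transcripts and 1 early erythroid-list transcript. In edgeR's fit of genes with at least 50 transcripts the log2 difference of Jak2 was 1.31 (SE 0.57, adjusted p = 0.17), which did not pass. Jak1 did not pass by any marker, with log2 differences of -0.21 (SE 0.37) by Car1, -0.49 (SE 0.39) by Cd79b and 0.05 (SE 0.39) by Cxcl12 in that fit. Stat5a was lower with Cd79b in 5 of 6 libraries and did not pass (-1.69, SE 0.67, adjusted p = 0.126), and Stat5b had differences of -0.49 (SE 0.54) by Car1 and -0.57 (SE 0.63) by Cd79b.

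**Figure D2:**
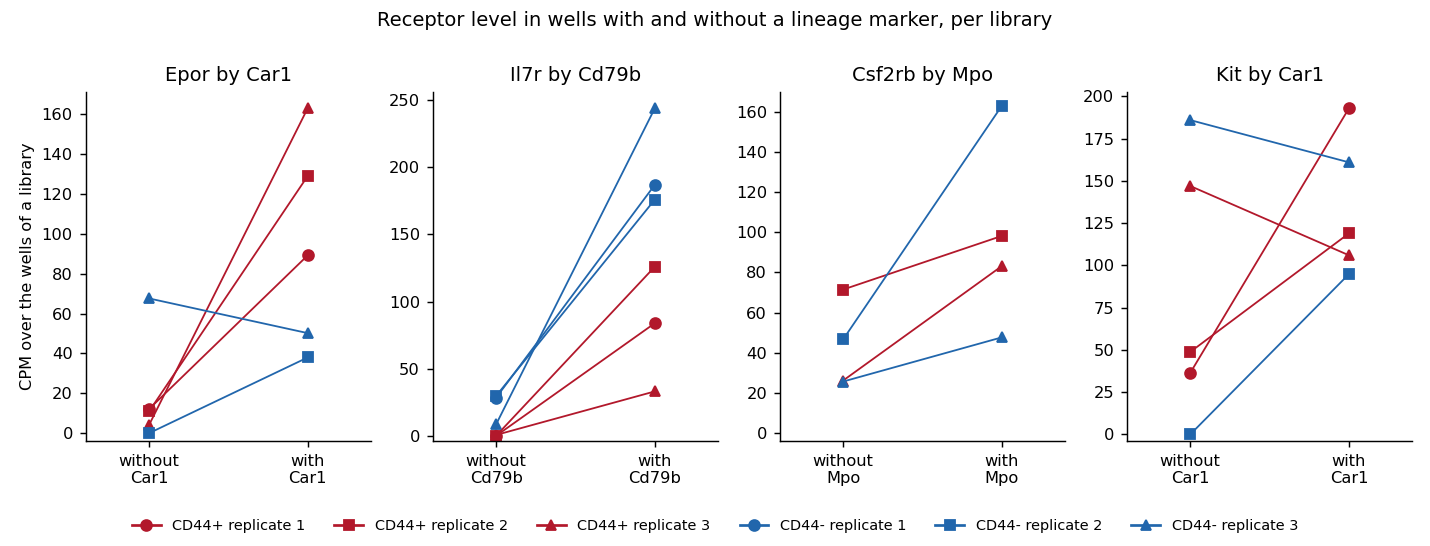
CPM of Epor by Car1, Il7r by Cd79b, Csf2rb by Mpo and Kit by Car1 in the wells without and with the marker, each line 1 library (red CD44+, blue CD44-, shape by replicate). With the marker, Il7r is higher in 6 of 6 libraries, Csf2rb in 4 of 4, Epor in 4 of 5 and Kit in 3 of 5. The 4 panels have separate axes.

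**Figure D3:**
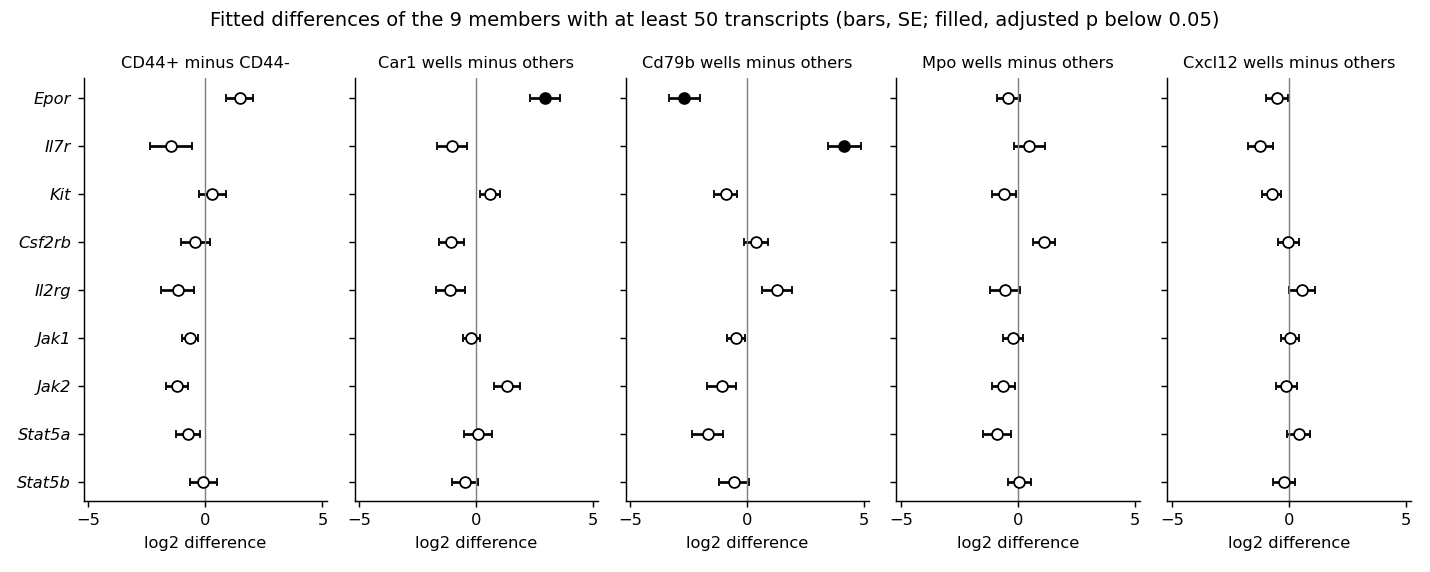
Log2 difference with its SE from edgeR for the 9 genes with at least 50 transcripts, between the sorts and between wells with and without each marker, filled where the adjusted p is below 0.05. Filled points are Epor by Car1 (2.94), Epor by Cd79b (-2.69) and Il7r by Cd79b (4.14).

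With at least 3 Car1 transcripts as the rule for a Car1 well, Epor stayed higher (2.32, SE 0.54, adjusted p = 0.00101) and 2 more of the genes were called by edgeR, both lower. They were Il7r (-2.02, SE 0.64, adjusted p = 0.0183) and Csf2rb (-1.42, SE 0.51, adjusted p = 0.0445), in a fit that called 2.57% of genes higher and 14.4% lower. The same 2 were called lower when CD44- replicate 2 was left out (-1.78, adjusted p = 0.0495, and -1.74, adjusted p = 0.0117), where 3.92% of genes were called higher and 8.06% lower. In that library Il7r stood at 133 CPM in Car1 wells against 20.5 CPM in the rest, and Csf2rb at 209 against 61.6 CPM, both against the direction of the other 4 libraries. Of the 100 Il7r transcripts, 19 lay in wells with at least 3 Car1 transcripts and 32 in all wells with Car1. Il7r thus reached the minimum of transcripts in both fits only through the other wells, where it was higher. No unfiltered fit is given here for either setting. With any Car1 transcript and no filter on low counts, edgeR called neither gene (Il7r -0.98, adjusted p = 0.492, and Csf2rb -1.03, adjusted p = 0.269).

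Wells that held exactly 1 of the 4 markers were also described, pooled over libraries. The pooled shares do not separate marker from library and sort, and their intervals treat wells as independent. Of the 149 wells with Car1, for instance, 66 came from CD44+ replicate 3. Epor was in 25 of 52 wells with Car1 alone (48.1%, 95% interval 34% to 62.4%), 1 of 33 with Cd79b alone (3.03%) and 3 of 73 with no marker (4.11%), at median depths of 6372, 2795 and 1955 transcripts. After thinning, these shares were 11.5%, 3.03% and 4.11%, and the thinned intervals overlapped. Il7r was in 12 of 33 wells with Cd79b alone (36.4%, 95% interval 20.4% to 54.9%) and 18.2% of them after thinning. It was in 0 of 52 wells with Car1 alone, which by a limit of 3 counts allows a share of wells of up to 5.77% (exact interval up to 6.85%), and in 1 of 73 with no marker (1.37%), although the Car1 wells were the deeper ones. These shares and limits are of wells with a transcript, not of cells that express the gene.

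Kit was in 19 of 52 wells with Car1 alone (36.5%), 8 of 33 with Cd79b alone (24.2%), 2 of 21 with Mpo alone (9.52%) and 5 of 38 with Cxcl12 alone (13.2%). After thinning the share was 7.69% for Car1 and 15.2% for Cd79b, the reverse order, so no order is read. Csf2rb was in 7 of 21 wells with Mpo alone (33.3%) and in 18.4% to 21.2% of the wells with 1 of the other markers, with intervals that overlapped. Il2rg was in 7 of 33 wells with Cd79b alone (21.2%) and 4 of 52 with Car1 alone (7.69%). Jak1 was in 48.1%, 39.4%, 28.6% and 47.4% of the wells with Car1, Cd79b, Mpo and Cxcl12 alone, and in 21.9% of those with no marker. Stat5a was in 18 of 52 wells with Car1 alone (34.6%) and 0 of 21 with Mpo alone, which by the same limit allows up to 14.3% (exact interval up to 16.1%).

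**Figure D4:**
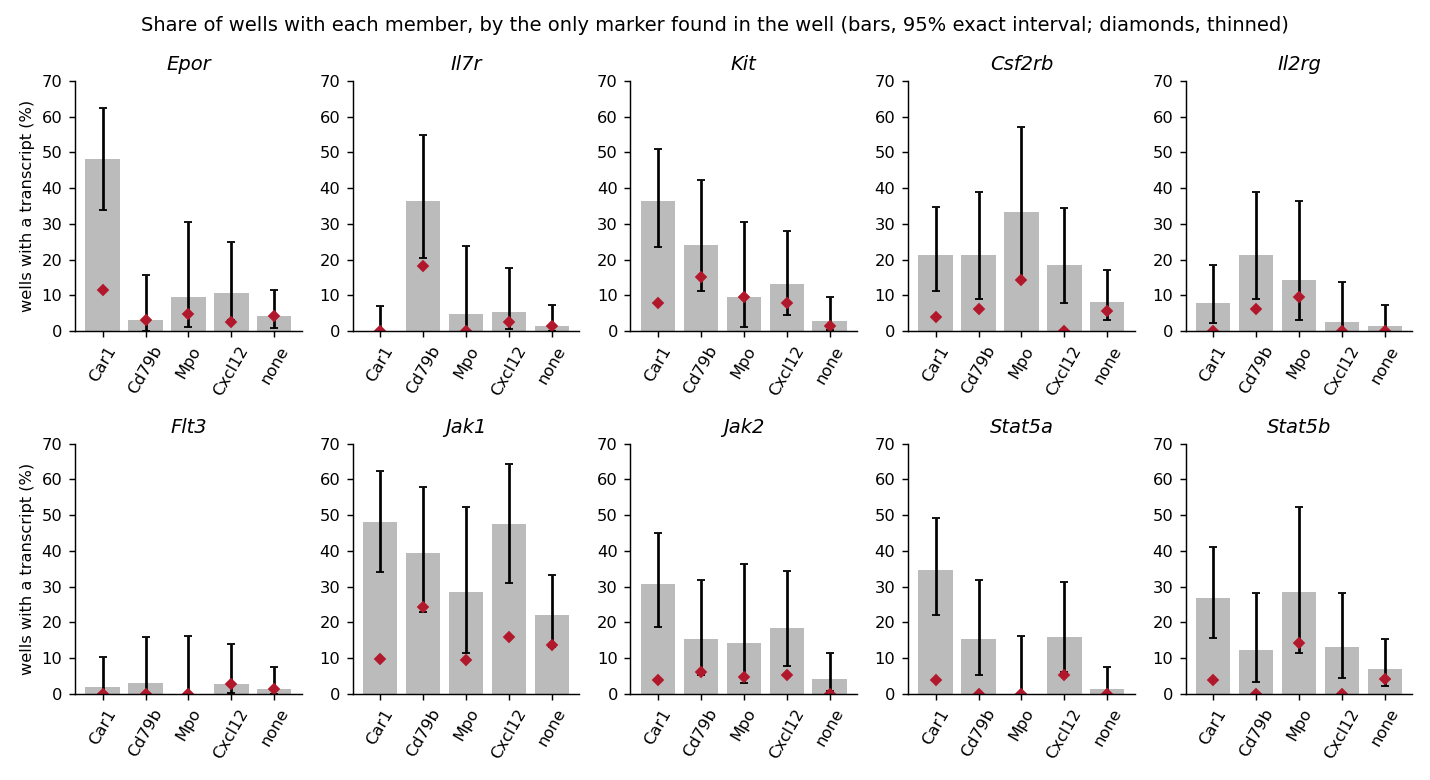
Share of wells with at least 1 transcript of each gene among wells with Car1, Cd79b, Mpo or Cxcl12 alone or none of them (52, 33, 21, 38 and 73 wells), as bars with 95% exact binomial intervals, and after thinning to 1000 transcripts (red diamonds). Epor is highest with Car1 alone (48.1%, thinned 11.5%) and Il7r with Cd79b alone (36.4%, thinned 18.2%).

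The wells richest in Epor, Il7r and Csf2rb carried the markers of different lineages, and the well richest in Kit carried early erythroid markers, as that of Epor did. The richest Epor well (18 transcripts, CD44+ replicate 2) held 240 transcripts of the early erythroid list and 1 of the B progenitor list. The richest Il7r well (16 transcripts, CD44+ replicate 2) held 129 of the B progenitor list and 8 of the early erythroid list. The richest Kit well (36 transcripts, CD44+ replicate 3) held 711 of the early erythroid list and none of the stem and multipotent progenitor list. The richest Csf2rb well (15 transcripts, CD44+ replicate 3) held 432 of the neutrophil list, 225 of the monocyte and dendritic list and 33 of the stem and multipotent progenitor list, and also 18 Kit transcripts.

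Epor and Il7r were found together in 4 wells. One of them, in CD44+ replicate 2, held 12 Epor, 9 Il7r, 4 Il2rg, 17 Jak1 and 10 Jak2 transcripts among 111333 in all, with 847 transcripts of the early erythroid, 1931 of the late erythroid and 223 of the B progenitor list. Whether it held more than 1 cell was not tested. The richest Jak1 well and the richest Jak2 well were the same (25 and 14 transcripts, CD44+ replicate 3), with 1109 transcripts of the early erythroid list. By contrast, 8 Jak2 transcripts lay in a CD44- replicate 3 well with 1064 stromal-list transcripts and 7 Stat5a transcripts in a CD44- replicate 2 well with 1120. Stat5a and Stat5b shared 36 wells, 60% of the wells with Stat5a and 49.3% of those with Stat5b, in wells of a median 21949 transcripts, and shared none after thinning.

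Within Car1 wells, the sorts were compared over 3 CD44+ and 2 CD44- libraries. Epor had an edgeR log2 difference of 1.31 (adjusted p = 0.162) in CD44+ against CD44- Car1 wells, and of the 3 genes tested, Epor, Jak1 and Kit, none was called, where 0% of 1893 genes were called higher and 0.264% lower. One of the 3, Epor, had an unadjusted p below 0.05, and DESeq2 called 0. Epor passed the filter there only through the CD44+ libraries, where it was higher. With the 2 complete pairs as a replicate block, Il7r was called lower in CD44+ (-3.01, SE 0.83, adjusted p = 0.00831), where 5.21% of 5396 genes were lower. That call rests on 17 and 3 Il7r transcripts in CD44+ replicates 2 and 3 (30.1 and 2.05 CPM) and 7 and 5 in CD44- (133 and 50.2 CPM). Il7r passed the filter there only through the CD44- libraries, where it was high. With no filter and all 5 libraries, edgeR called 0 of the 10 genes. Within Cd79b wells none of the 10 genes passed the filter. In the fit of genes with at least 50 transcripts edgeR gave Il7r -1.39 with an adjusted p of 0.981, and called none of the 5 of the 10 genes it tested, where 0% of 2855 genes were called in either direction. Il7r alone had an unadjusted p below 0.05 there.

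The other genes of the pathway were taken from lists by role. Of 14 ligands, only Kitl, the ligand of Kit, was tested between the sorts, and it was lower in CD44+ (log2 difference -4.11, SE 0.69, adjusted p = 0.041 in edgeR). Kitl stood at 13.4, 52.8 and 31.2 CPM in CD44+ and at 124, 807 and 783 CPM in CD44-. It passed the filter of that test only through the CD44- libraries, where it was higher. Stromal markers, a list that includes Kitl itself, summed to 167 to 1413 CPM in CD44+ and 5791 to 31283 CPM in CD44-. The part of the other stromal markers in the Kitl values was not tested. By Cxcl12, among genes with at least 50 transcripts, Kitl was higher in edgeR (6.57, SE 0.68, adjusted p = 1.49e-18). Kitl reached those 50 transcripts mainly through the Cxcl12 wells. Flt3l, the other ligand with a high mean, averaged 30.1 CPM over the 6 libraries.

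Of 29 other cytokine receptors, 7 were tested between the sorts and 1, Lepr, the leptin receptor of marrow stroma, was lower in CD44+ (-3.09, SE 0.55, adjusted p = 0.0488 in edgeR). Lepr stood at 26.7, 51.9 and 84.9 CPM in CD44+ and at 186, 347 and 833 CPM in CD44-. It passed the filter only through the CD44- libraries, where it was higher. The median of the 7 was -0.63 against -0.04 for all genes. By Car1 the filtered fit tested 3 and called 2 lower in edgeR, Csf2ra, the GM-CSF receptor alpha chain (-2.30, adjusted p = 0.0198), and Ifngr2, an interferon gamma receptor chain (-1.97, adjusted p = 0.0307). Of the 14 with at least 50 transcripts, 8 were lower by Car1 and none higher, with a median of -1.91 against 0.14 for all genes, of which 4.92% were called lower and 3.15% higher. Neutrophil markers were at 5037 CPM with Car1 and 22251 CPM without. Monocyte and dendritic markers, a list that includes Csf1r of these 8 receptors, were at 160 and 1998 CPM. The part of the markers in these differences was not tested. Among the 8 were Csf3r, the G-CSF receptor (-2.98, adjusted p = 0.0125 in edgeR), Crlf2, the TSLP receptor chain (-2.29, adjusted p = 0.0157), and Ifnar1, a type I interferon receptor chain (-2.04, adjusted p = 0.00889). Csf3r had 58 transcripts in all and Crlf2 75, and both reached the minimum of 50 mainly through wells without Car1. Epor was the only receptor among the 10 genes and this list that was higher by Car1 in that fit.

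By Cd79b, 15 of the other receptors had at least 50 transcripts. There edgeR called 1 higher, Csf1r, the M-CSF receptor of monocytes (2.67, SE 0.65, adjusted p = 0.00237), and 3 lower. The 3 were Lepr (-3.39, adjusted p = 1.83e-07), Ghr, the growth hormone receptor (-5.92, adjusted p = 0.00091), and Lifr, the LIF receptor (-3.56, adjusted p = 0.000984). Monocyte and dendritic markers stood at 2186 CPM in Cd79b wells and 304 CPM in the rest, and stromal markers at 185 and 1473 CPM. Csf1r is itself on the monocyte and dendritic list and Lepr on the stromal list, so these sums include them, here and by Mpo. The part of the markers in these receptor differences was not tested. By Mpo, Csf1r was also higher (3.39, SE 0.67, adjusted p = 0.00168) and Lepr lower (-4.03, adjusted p = 2e-05) in edgeR, with monocyte and dendritic markers at 1469 against 342 CPM and stromal markers at 223 against 1710 CPM. By Cxcl12, Lepr (3.48, adjusted p = 4.91e-11) and Ghr (4.58, adjusted p = 3.04e-05) were higher. Ghr had 51 transcripts in 18 wells in all, and Lifr 97 in 52 wells. Such genes reached the minimum of 50 mainly through the wells where they were higher, and no unfiltered fit is given for them here.

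Of 7 other JAKs and STATs, Stat3 alone was tested between the sorts and did not pass (-2.38, SE 0.69, adjusted p = 0.132 in edgeR). Stat3 entered that test only through the CD44- libraries, where it was higher. None of the 5 with at least 50 transcripts was called between the sorts or by any of the 4 markers. Of 21 genes known as STAT5 targets, 5 were tested between the sorts and 0 called. Among 11 with at least 50 transcripts, Tfrc, the transferrin receptor that brings iron into red-cell precursors, was higher by Car1 (2.00, SE 0.43, adjusted p = 0.00434 in edgeR). Bcl2, a survival gene, was lower by Car1 (-2.13, SE 0.47, adjusted p = 0.00597). Serpina3g, a serpin, was higher by Cxcl12 (4.36, adjusted p = 2.09e-06) and lower by Cd79b (-3.06, adjusted p = 0.00637) and Mpo (-5.25, adjusted p = 0.000312). It had 84 transcripts in 16 wells in all and reached the minimum of 50 mainly through the wells where it was higher. Mcl1, a survival gene with a mean of 196 CPM, did not pass between the sorts (-0.49, SE 0.54, adjusted p = 0.657).

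Of 14 negative regulators, 4 were tested between the sorts and 0 called. Ptprc, which acts on JAKs as a phosphatase, was lower by Car1 (-1.69, SE 0.47, adjusted p = 0.0261 in edgeR, genes with at least 50 transcripts), and Ptpn6, the phosphatase SHP-1, did not pass between the sorts (-0.19, SE 0.40). Of 20 adaptors and downstream kinases, 8 were tested between the sorts and 0 called. By Cd79b, Vav1, an exchange factor of blood cells (1.96, adjusted p = 0.00846), and Pik3cd, the PI3-kinase of lymphocytes (1.84, adjusted p = 0.0126), were higher in edgeR, and by Car1 Vav1 was lower (-1.77, adjusted p = 0.0443). Nras, a small GTPase with a mean of 149 CPM, did not pass between the sorts (-0.32, SE 0.39, adjusted p = 0.691). The medians of the lists between the sorts in the filtered fit were -0.49 for STAT5 targets, -0.52 for negative regulators and -0.33 for adaptors, against -0.04 for all genes.

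Likeness of pattern was described over 19 sums of wells, by library and by single marker, for the 3 genes that passed the filter between the sorts. The genes most like Il7r were Dntt (r = 0.91), the terminal transferase of early lymphocytes, Cplx2 (r = 0.89) and Blnk (r = 0.86), a B-cell linker protein. Those most like Kit were Tpp1 (0.87), Ppp2r1b (0.81) and Dazap1 (0.78), and among those most like Jak1 were Cd81 (0.87) and Marc2 (0.82). These are Pearson correlations of log2(CPM + 10) among 2462 genes, and the sums share libraries, plates and depth.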

How the data were processed

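Estimated counts of transcripts per gene and well were deposited by the authors as 4 tables, 1 per 384-well plate. The values fit reads collapsed to molecular barcodes with a correction for barcode saturation (inferred from the values, since undoing it gave whole numbers). Reads were aligned with BWA 0.7.15 to mm10, per the submitters' processing notes. For the counter, annotation and strand setting, the sources used here give nothing. Spike-in rows were left out, and wells with fewer than 1000 transcripts were dropped (1193 of 1536).

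Sums per library, rounded to whole numbers, were compared between the sorts, and sums of wells with and without a marker were compared within libraries with the library as a block, using at least 3 wells per sum. Tests used edgeR 4.0.16 (quasi-likelihood, TMM factors, filterByExpr) in R 4.3.3 over all genes, with Benjamini-Hochberg adjustment and a threshold of 0.05. DESeq2 1.42.0 was an alternative, as were other minimum depths, the pair block, no filter, and leaving out each library. The fits of genes with at least 50 transcripts were chosen after seeing the data. Every adjusted p in the text is from edgeR unless DESeq2 is named. Single values were compared with exact two-sided permutation tests (scipy 1.17.1), and the fits were tested on simulated data. Between the sorts, the filtered fit recovered 4.71% of 2-fold and 94.7% of 8-fold changes, and the unfiltered fit 0% and 30.5%. By Car1 and Cd79b the filtered fits recovered 33.3% and 23.5% of 2-fold changes, and the unfiltered fits 1.08% and 1.09%. A gene that was not called may therefore still differ 2-fold. CPM are transcripts of a gene over all transcripts in the sum. Library sums of 97041 to 1707318 transcripts set the precision, and 3 transcripts correspond to 1.76 to 30.9 CPM.

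Replicates 2 and 3 pair libraries of the same plate, and replicate 1 pairs the plates that carry the number 1 in the labels. Deviations from the sort means over 7404 genes had r = 0.31, 0.22 and 0.22 for same-numbered libraries and -0.26 to 0.06 for the others, a gap that is in part arithmetic since deviations sum to 0. The members and gene lists were chosen with earlier results of these data known. All 10 genes are named, with up to 4 genes per list and comparison that passed, by smallest p, and the 2 of each list with the highest mean CPM. Hras, Il2, Il9 and Il9r of the lists had no row. A few genes that this rule names are not reported here.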

Additional observations from a re-analysis of the deposited data

Results flagged for a closer look

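The log2 ratio of a gene's level with and without a marker was compared between the libraries of each test. In 6 of 40 such groups 1 library stood apart from the rest by Dixon's test. That test assumes normally distributed values, while many of these ratios rest on few or no transcripts. The count is therefore not set against a rate by chance. By Car1, Il7r had a ratio of 2.23 in CD44- replicate 2, against -1.78 to -0.88 in the others, and Flt3 had -1.15 in CD44+ replicate 1, against -0.21 to 0.00. By Mpo, Stat5a had -5.08 in CD44- replicate 2, against -0.61 to 0.15, and Flt3 had -0.56 in CD44+ replicate 2, with the others at 0.00. By Cxcl12, Csf2rb had -1.93 in CD44+ replicate 1, against -0.23 to 0.09, and Flt3 had 3.76 in the same library, against -1.43 to 0.00. The Flt3 ratios rest on 5 transcripts in all. The Stat5a value rests on 7 transcripts of 1 well, 1 of the 6 wells without Mpo in that library.

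In 4 of the 40 groups every CD44+ library had the opposite direction to every CD44- library. Signs alone were counted, and by Mpo only the few libraries of the shared plates entered. How often this holds over all genes was not computed, so the count is not read as high or low. The difference between the sorts was not tested in these cases. Stat5a by Car1 had ratios of 1.65, 0.36 and 1.43 in CD44+ and -3.94 and -1.15 in CD44-, with a mean of -0.33. The -3.94 is CD44- replicate 2, where the same well held all 7 Stat5a transcripts. By Mpo, Epor had -0.72 and -0.37 in CD44+ against 1.81 and 0.41 in CD44- (mean 0.28), and Jak1 had 0.06 and 0.01 against -0.63 and -0.85 (mean -0.35). Stat5b by Mpo had 0.63 and 0.42 against -2.80 and -0.28 (mean -0.51).

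Wells with fewer than 1000 transcripts, used in no comparison, also held transcripts of these genes: 7 of Epor, 18 of Il7r, 14 of Kit, 8 of Csf2rb, 13 of Il2rg, 46 of Jak1, 6 of Jak2 and 9 of Stat5b.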

How the results depend on the processing

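The number of the 10 genes called was 0 in every comparison of the filtered edgeR fits. It became 1 between the sorts among genes with at least 50 transcripts with the pair as a replicate block (Il7r, -2.20), and 1 within Car1 wells with the pair block. By Car1 it was 1 with no filter, 1 with at least 50 transcripts, 3 with at least 3 Car1 transcripts, and 1 without low-quality or without the deepest wells. Leaving out 1 library gave 0 to 3 in that fit (3 without CD44- replicate 2) and 0 to 1 in the filtered fit. By Cd79b it was 2 with no filter, 2 with at least 50 transcripts, 2 with at least 3 Cd79b transcripts, 2 without low-quality or deepest wells, and 0 to 2 leaving out 1 library (1 without CD44+ replicate 3). The cause was not tested, except that sparse genes enter only where the filter is relaxed. In the other 104 settings, those for the sorts, the 4 markers, the sorts within marker wells and the shares of wells, it stayed at 0.

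Some directions changed, all of differences that had not passed a test. Kit between the sorts ran from -0.03 (without CD44- replicate 1 or 2) to 1.37. By Mpo, Jak1 ran from -0.66 to 0.03, Kit became 0.41 with at least 3 Mpo transcripts and Stat5b -0.24 in DESeq2 and -0.20 with no replicate block. By Cxcl12, Jak1 became -0.00 with at least 3 transcripts and ran from -0.14 to 0.15 without 1 library. Within Car1 wells, Jak1 became 0.34 with no filter, 0.03 with the pair block and 0.35 with at least 3 transcripts, and ran from -0.30 to 0.38 without 1 library, while Kit became 0.25 with no filter and ran from -0.35 to 0.38. The share of wells, CD44+ minus CD44-, changed sign without thinning for Kit (12.6 percentage points), Flt3 (0.539), Csf2rb (4.73), Il2rg (1.47), Jak1 (4.47), Jak2 (3.61) and Stat5a (11.4), and at 2000 transcripts for Kit (5.63), Flt3 (0.901), Stat5a (1.16) and Stat5b (-10.9). Without 1 library it ran from -2.30 to 3.32 for Kit, -0.758 to 0.595 for Flt3 and -1.41 to 0.48 for Csf2rb. The cause was not tested.

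Over all genes, calls between the sorts were 25, against 270 in DESeq2, 477 with no filter, 81 at 50 transcripts, 156 with the pair block, 0 after thinning and 0 to 115 without 1 library. By Car1 they were 115, against 275 in DESeq2 and 774 with no filter, and by Cd79b 48, against 115 and 591. Il7r between the sorts with the block in the filtered fit was -2.26 (adjusted p = 0.114). After thinning none of the 10 genes was deep enough to be tested.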
